A study of Rattus norvegicus with 10 samples.

Results

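Interleukins, the tumor necrosis factor (TNF) superfamily and their receptors were examined in hearts of adult and aged rats. Members were the probe sets whose single gene symbol in the platform annotation starts with Il and a digit, with Tnfsf or with Tnfrsf, or is Tnf, Lta or Ltb. That rule gave 92 probe sets of 31042, which stand for 74 genes of the 14217 named genes on the Affymetrix rat expression array used. All animals were male Fischer-344 rats, an inbred strain often used in research on aging, on standard chow and with no treatment named. The adult group was 6 months old (5 arrays, replicates 1, 2, 3, 4 and 6) and the aged group 24 months old (5 arrays, replicates 2, 3, 4, 5 and 6). The labels name the whole heart as the source and the design text the ventricles, and they do not say outright that each array is a separate rat. P-values therefore measure the spread between these arrays, which may be technical. No batch is given.

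Interleukins and TNF ligands are signalling proteins that leukocytes, endothelium, fibroblasts and muscle cells use to start, direct and end inflammation. Members of the IL-1 and TNF families signal mainly to NF-kappaB and to kinases of the stress response, whereas most other interleukins act through Janus kinases and STAT factors. In the heart, TNF and IL-1 beta are known to depress contraction, the gp130 receptor to protect muscle cells, and IL-33 to act as an alarm signal released from stromal cells.

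All values are log2 values relative to the probe set's median over the 10 arrays, averaged over the probe sets of a gene, so they show differences between arrays and hold no level. The numerical step of the values was read as a trace of the brightness before centring. By it, 5 member probe sets lay at 8 or more on the log2 scale, 71 between 4 and 8 and 16 between 2 and 4, the dimmest class. Of all probe sets, 11.4%, 72.7% and 15.9% lay in these classes. The classes are an inference and are uncertain for single probe sets. All 11 measured cardiomyocyte markers lay in the brightest class.

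Promoter sequences are shown for 4 members to set genes that rose beside a cytokine gene that did not pass the test. RefSeq's promoter table (build GRCr8) matched 55 of the 74 genes, with 57 start sites. Each run below is the 250 bases before a start, 5' to 3'. Capitals mark a match on either strand to the NF-kappaB consensus, the AP-1 motif TGANTCA, the STAT motif TTCNNNGAA, the GC box GGGCGG or the TATA box TATAAA. Matches of a GC box may overlap each other. The starts are Il6 (chr4:5894576-5894825, minus strand), Tnfrsf1a (chr4:159836869-159837118, plus strand), Tnfrsf12a (chr10:13213649-13213898, minus strand) and the downstream start of the 2 given for Il33 (chr1:237134696-237134945, plus strand).
Il6: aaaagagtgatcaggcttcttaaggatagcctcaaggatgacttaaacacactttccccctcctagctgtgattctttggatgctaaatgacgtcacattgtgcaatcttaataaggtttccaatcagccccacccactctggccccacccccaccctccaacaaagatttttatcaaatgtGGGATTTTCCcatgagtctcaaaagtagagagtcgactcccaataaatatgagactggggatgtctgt
Tnfrsf1a: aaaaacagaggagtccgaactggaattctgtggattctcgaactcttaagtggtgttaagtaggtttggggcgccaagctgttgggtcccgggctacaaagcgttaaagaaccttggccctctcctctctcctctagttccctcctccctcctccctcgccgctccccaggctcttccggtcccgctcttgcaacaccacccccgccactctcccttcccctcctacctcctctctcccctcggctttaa
Tnfrsf12a: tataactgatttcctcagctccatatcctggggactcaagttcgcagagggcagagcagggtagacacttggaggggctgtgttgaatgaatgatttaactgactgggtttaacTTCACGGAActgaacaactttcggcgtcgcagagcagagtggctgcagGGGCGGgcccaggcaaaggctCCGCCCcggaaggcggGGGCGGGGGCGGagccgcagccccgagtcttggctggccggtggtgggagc
Il33: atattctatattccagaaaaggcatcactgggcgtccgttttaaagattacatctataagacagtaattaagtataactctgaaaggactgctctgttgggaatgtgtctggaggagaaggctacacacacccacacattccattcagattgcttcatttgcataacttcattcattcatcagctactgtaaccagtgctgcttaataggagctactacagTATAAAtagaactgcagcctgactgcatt

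The Il6 window held 1 NF-kappaB match, Tnfrsf12a held 1 STAT match and 4 GC boxes, the Il33 window shown held 1 TATA box, and the Tnfrsf1a window held none of the 5 motifs. The window of the upstream Il33 start, not shown, also held none of them. The NF-kappaB consensus was found before 8 of the 57 member starts (14.0%) and before 3.54% of all 33469 starts. Those 8 starts belong to 7 genes, Il6, Lta, Ltb, Il1r1, Il1rap, Il27ra and Tnfrsf8. The windows of the 2 Il1rap starts overlap and hold the same match. None of the 7 genes passed the test between the ages. Of all 74 members 9.46% passed, so 0 of 7 lies near that share. Of the 7 genes that rose, 6 had an entry. AP-1 matches preceded 10.5% of member starts and 6.34% of all starts, STAT matches 8.77% and 7.67%, GC boxes 40.4% and 30.5%, and TATA boxes 21.1% and 12.9%. A match describes letters in this window and is no evidence that a factor binds there.

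At 24 months 7 of the 74 members were higher than at 6 months and 0 were lower, by limma with Benjamini-Hochberg adjustment over all 14217 genes. Among all genes 6.77% were higher and 5.09% lower, so the 9.46% of members that passed in either direction lay near the 11.9% of all genes. The 7 were the ligand genes Il33, Il34 and Tnfsf13 and the receptor genes Tnfrsf1a, Tnfrsf12a, Il4r and Il6st. At an unadjusted p under 0.05, 19 members were higher and 3 lower (25.7% and 4.05%). The background was 14.3% and 12.0% of all genes. The median difference was 0.03 over members and -0.01 over all genes. In whole tissue fewer cells of a type and less RNA per cell cannot be told apart. Age groups did not overlap in 4 members, all of them higher in aged hearts, against 5.13% of all genes that were higher and 4.78% that were lower without overlap. The count of 7 became 13 without aged replicate 2, and lay between 5 and 10 without any other single array. Calls went with brightness. Of the 12 members whose probe sets all lay in the dimmest class 0 passed (0 at an unadjusted p under 0.05), and 1.85% of all such genes did. Among genes of the middle class 10.3% of members and 10.2% of all genes passed.

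**Figure D1:**
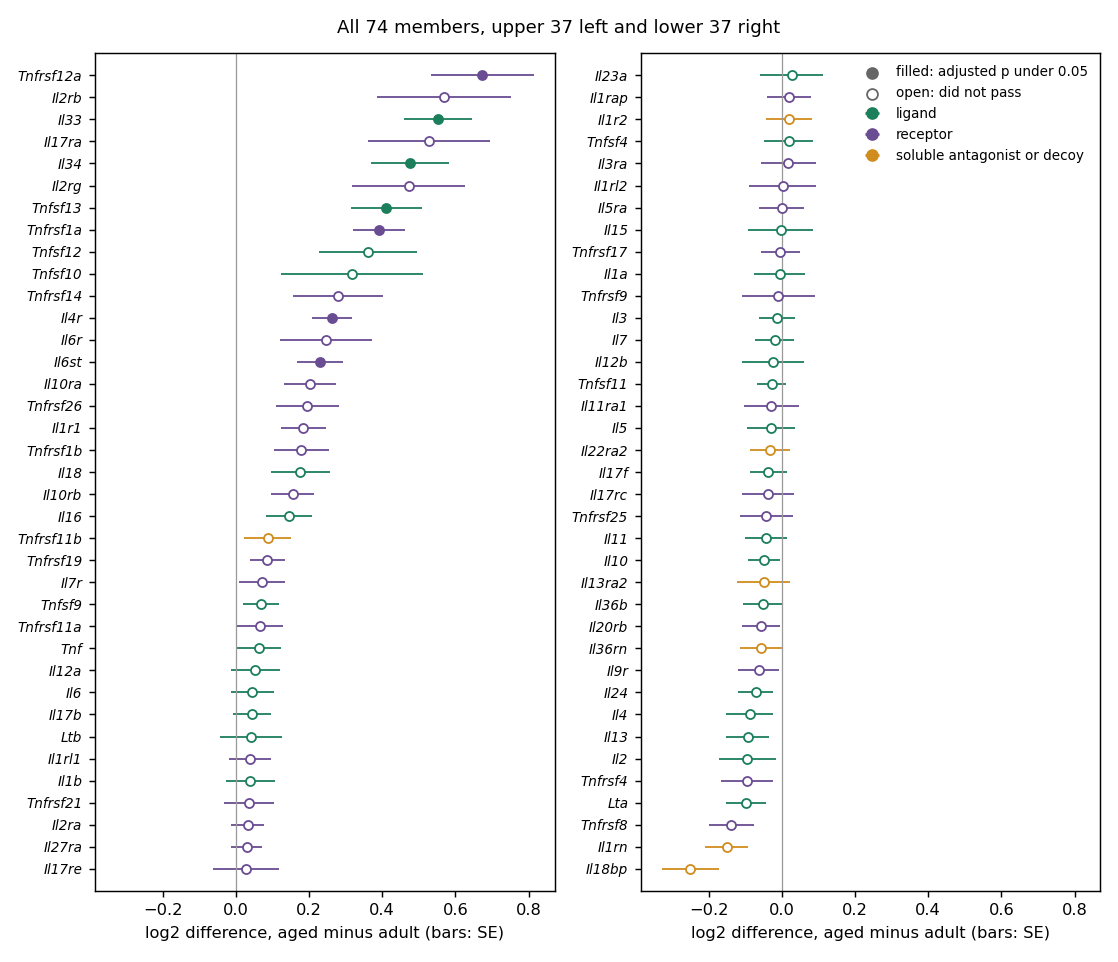
Log2 difference, aged minus adult, of all 74 member genes with its standard error, ordered by size over both panels and coloured by role. Filled points mark the 7 genes with an adjusted p under 0.05, which lie between 0.23 and 0.67; the lowest point is Il18bp at -0.25.

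By family, 3 of 23 TNF superfamily genes rose (13.0%) and 1 of 13 genes of the IL-1 family (7.69%). So did 1 of 12 of the common gamma chain and type 2 cytokines (8.33%) and 1 of 9 of the IL-6 and IL-12 families (11.1%). Of the 2 other interleukins, Il34 and Il16, 1 rose. The IL-10 family (6 genes), the IL-17 family (5 genes) and IL-3 and IL-5 (4 genes) had 0. Among all genes 6.77% rose and 5.09% fell, and counts this small do not set the families apart.

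Among ligands, 3 of 32 genes rose (9.38%, against 6.77% of all genes) and 0 fell, with a median difference of 0.01. At an unadjusted p under 0.05, 6 were higher and 0 lower (18.8% and 0%, against 14.3% and 12.0% of all genes). Il33, an alarmin of the IL-1 family kept in the nuclei of stromal and endothelial cells, read -0.14, -0.12, -0.48, -0.41 and -0.35 in adult replicates 1, 2, 3, 4 and 6. In aged replicates 2 to 6 it read 0.12, 0.45, 0.15, 0.10 and 0.43. Every aged array lay above every adult array, with aged replicates 3 and 6 the highest. The difference was 0.55 ± 0.09 SE, or 1.47-fold (adjusted p = 0.00417, n = 5 per age, limma). Both of its probe sets passed the test, at 0.44 and 0.66. Its receptor gene Il1rl1, which encodes ST2, did not pass (0.04 ± 0.06 SE, adjusted p = 0.717), and neither did the co-receptor gene Il1rap (0.02 ± 0.06 SE). The probe sets of Il1rl1 differed in sign (-0.03 and 0.11), as did those of Il1rap (-0.04 and 0.08), and none of them passed.

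Il34 encodes a second ligand of the receptor Csf1r, which keeps macrophages alive. It read 0.03, -0.39, -0.18, -0.25 and -0.24 in the adult arrays and -0.03, 0.20, 0.16, 0.52 and 0.49 in the aged arrays. Adult replicate 1 and aged replicate 2 crossed, and aged replicates 5 and 6 were highest. The rise was 0.48 ± 0.11 SE, or 1.39-fold (adjusted p = 0.0139, n = 5 per age, limma). Without both aged replicates 3 and 6 it did not pass (adjusted p = 0.0558). The receptor gene Csf1r had a difference of 0.55 ± 0.18 SE and did not pass (adjusted p = 0.0756), and Csf1, the other ligand gene, stood at 0.04.

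Tnfsf13 encodes APRIL, a survival factor of plasma cells and B cells. Adult values were 0.02, -0.27, -0.41, -0.23 and -0.27, and aged values 0.11, -0.09, 0.22, 0.22 and 0.45. Adult replicate 1 lay above aged replicate 3, and the other arrays were apart. The gene rose by 0.41 ± 0.10 SE, or 1.33-fold (adjusted p = 0.0178, n = 5 per age, limma). Its probe sets disagreed, with 0.68 for the one whose name ends in _a_at (adjusted p over probe sets 0.00251) and 0.14 for the plain _at probe set (adjusted p over probe sets 0.501). By the latter alone the gene did not pass, nor did it without adult replicate 3 (adjusted p = 0.0513). Of 7 measured markers of B lymphocytes and plasma cells 0 rose and 0 fell, against 6.77% and 5.09% of all genes. At an unadjusted p under 0.05, 1 was higher and 1 lower, against 14.3% and 12.0% of all genes. Its neighbour in the genome, Tnfsf12, encodes TWEAK, the ligand of the receptor Tnfrsf12a. Tnfsf12 stood at 0.36 ± 0.13 SE (adjusted p = 0.104), with aged values from -0.12 to 0.53 that overlapped adult values from -0.44 to 0.05. It passed without aged replicate 4 (adjusted p = 0.0461).

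**Figure D2:**
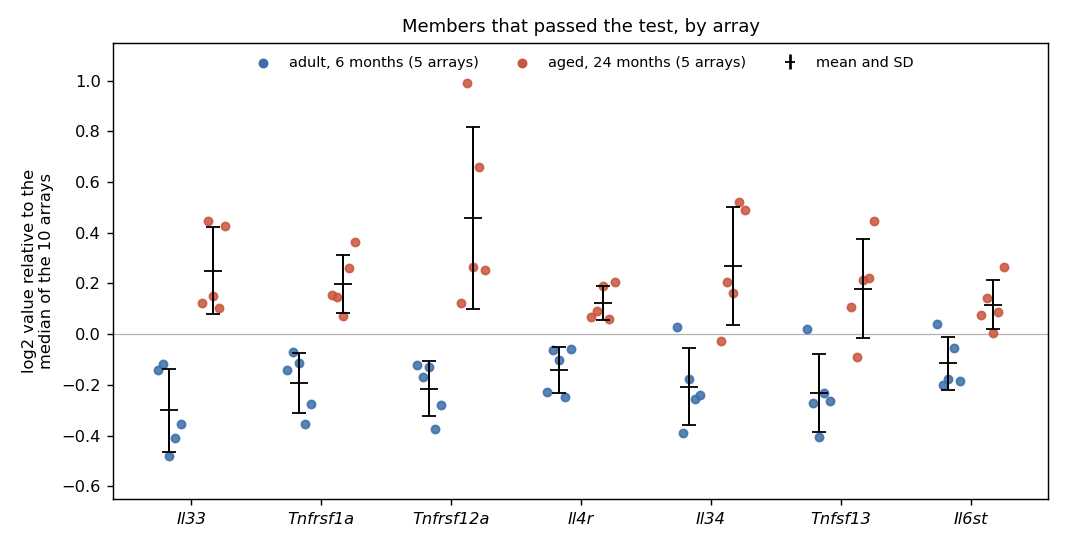
Log2 value of each array, relative to the median of the 10 arrays, for the 7 genes that passed the test, with the mean and SD of the 5 arrays of each age; points run from left to right by replicate number. Ages do not overlap in Il33, Tnfrsf1a, Tnfrsf12a and Il4r, and Tnfrsf12a spreads most among aged arrays, from 0.12 to 0.99.

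The classical inflammatory ligands Il1b, Il6 and Tnf did not pass the test. Their SDs within an age ran from 0.04 to 0.13, and those of Tnfrsf1a, which rose, were 0.12 and 0.11. Il1b read 0.07, -0.01, -0.16, -0.12 and -0.10 in adult hearts and 0.04, -0.25, 0.06, 0.02 and 0.01 in aged hearts. The arrays were interleaved, and the difference of 0.04 had a 95% interval of -0.11 to 0.19 (0.929-fold to 1.14-fold, from the limma fit). Il6 read 0.07, 0.11, -0.15, -0.10 and -0.10 in adult hearts and -0.03, -0.04, 0.04, 0.05 and 0.03 in aged hearts. Here too the ages were interleaved (0.04, interval -0.08 to 0.17), and its probe set lay in the dimmest class. Tnf read -0.17, 0.09, -0.02, -0.18 and 0.03, then -0.06, 0.08, 0.04, 0.05 and -0.04, a difference of 0.06 (interval -0.07 to 0.19). The upper ends of these 3 intervals are 1.14-fold for Il1b, 1.13-fold for Il6 and 1.14-fold for Tnf. They hold for the array signal only, and 1 of the 2 Tnf probe sets also lay in the dimmest class.

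Il18, an IL-1 family ligand that needs caspase-1 for its release, differed by 0.18 ± 0.08 SE (adjusted p = 0.187) and passed without aged replicate 2 (adjusted p = 0.0486). Its aged values ran from -0.12 to 0.31, with replicates 5 and 6 the highest. Il16, a chemoattractant of CD4 cells, stood at 0.15 ± 0.06 SE (adjusted p = 0.158). Tnfsf10, which encodes the death ligand TRAIL, spread from -0.53 to 0.30 in adult arrays and from -0.47 to 0.60 in aged arrays (0.32 ± 0.19 SE, adjusted p = 0.335). The anti-inflammatory Il10 and the type 2 cytokine Il4 had differences of -0.05 and -0.09 (adjusted p = 0.543 and 0.440). Il1a, Il7, Il11, Il15, Lta, Ltb and Tnfsf11 lay between -0.10 and 0.04, and none of them passed (adjusted p from 0.282 to 0.988). All probe sets of Il10, Lta and Tnfsf11 lay in the dimmest class, where few genes passed. The 11 ligand genes not named here had differences from -0.07 to 0.07. Il2 and Il13, chosen after their values were seen, had probe sets in the brightest class, with differences of -0.09 each. That class is an inference, uncertain for single probe sets, and does not show that these genes were strongly expressed.

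**Figure D3:**
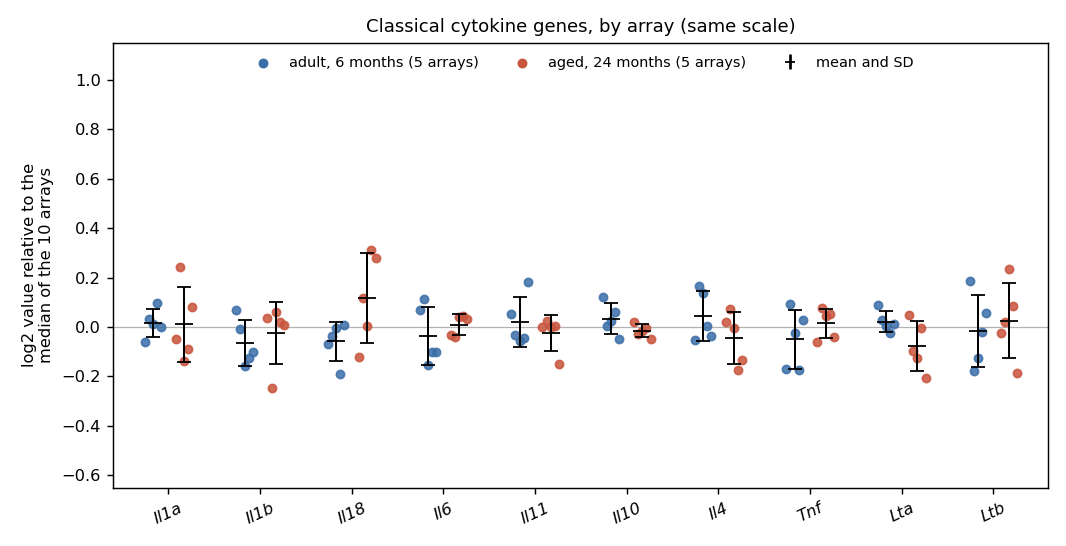
Log2 value of each array, relative to the median of the 10 arrays, for 10 classical cytokine genes on the scale used for the genes that rose, with mean and SD of the 5 arrays of each age. The ages overlap in every gene drawn, and values lie between -0.25 and 0.31.

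Of the 35 receptor genes 4 rose (11.4%, against 6.77% of all genes) and 0 fell, with a median difference of 0.04. In 3 the aged arrays were higher without overlap (8.57%, against 5.13% of all genes). At an unadjusted p under 0.05, 13 were higher and 1 lower (37.1% and 2.86%, against 14.3% and 12.0% of all genes). Tnfrsf1a encodes TNF receptor 1, the receptor that most cells carry and that can signal to survival or to cell death. It read -0.14, -0.07, -0.12, -0.36 and -0.28 in adult hearts and 0.15, 0.15, 0.07, 0.26 and 0.36 in aged hearts. The ages did not overlap and the spread was alike, with an SD of 0.12 and 0.11. The gene rose 1.31-fold (0.39 ± 0.07 SE, adjusted p = 0.00512, n = 5 per age, limma). Tnfrsf1b, for TNF receptor 2, which is found mainly on leukocytes and endothelium, stood at 0.18 ± 0.08 SE and did not pass (adjusted p = 0.150).

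Tnfrsf12a encodes Fn14, the small receptor for TWEAK, known to be induced by injury and growth factors in muscle and fibroblasts. It had the largest difference of the 74 members. Adult values were -0.12, -0.17, -0.13, -0.37 and -0.28, and aged values 0.12, 0.99, 0.26, 0.66 and 0.25. All aged arrays were higher, and replicates 3 and 5 stood well above the other 3 aged arrays. The rise was 0.67 ± 0.14 SE, or 1.59-fold (adjusted p = 0.0100, n = 5 per age, limma), between 0.54 and 0.76 in every setting tried.

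Il4r encodes the receptor chain that IL-4 and IL-13 share. Its values were -0.23, -0.06, -0.10, -0.25 and -0.06 in adult arrays and 0.07, 0.09, 0.19, 0.06 and 0.20 in aged arrays. The ages did not overlap and no array stood apart. The rise was small, 1.20-fold (0.26 ± 0.06 SE, adjusted p = 0.0102, n = 5 per age, limma). Il6st encodes gp130, the signal chain of the IL-6 family, and read 0.04, -0.20, -0.18, -0.05 and -0.18, then 0.08, 0.14, 0.01, 0.09 and 0.26. Adult replicate 1 overlapped the aged arrays. It rose 1.17-fold (0.23 ± 0.06 SE, adjusted p = 0.0329, n = 5 per age, limma). All 4 probe sets were higher in aged hearts, from 0.12 to 0.43, and 1 of them passed. The call was lost on leaving out any of adult replicates 2, 3 and 6, or of aged replicates 3, 5 and 6 (adjusted p from 0.0534 to 0.0835), nor by its 2 brightest probe sets (0.143) or without both aged replicates 3 and 6 (0.154). The alpha chains that give gp130 its ligands did not pass, with Il6r at 0.25 ± 0.12 SE (adjusted p = 0.235) and Il11ra1 at -0.03 ± 0.07 SE (0.851).

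Il2rb and Il2rg, which encode receptor chains of lymphocyte cytokines, did not pass the test. Il2rb, the beta chain for IL-2 and IL-15, read 0.02, -0.55, -0.29, -0.07 and -0.12 in adult arrays and 0.02, 0.86, -0.02, 0.12 and 0.84 in aged arrays. Il2rg, the common gamma chain, read 0.00, -0.32, -0.40, -0.22 and 0.04, then 0.13, 0.65, -0.04, 0.00 and 0.72. In both genes aged replicates 3 and 6 were high and the other 3 aged arrays lay at 0.13 or below. The differences were 0.57 ± 0.18 SE (adjusted p = 0.0647) and 0.47 ± 0.15 SE (adjusted p = 0.0657). Il2rb passed without aged replicate 2 (0.0392) or 4 (0.0422), and Il2rg without aged replicate 4 (0.0398). Without both aged replicates 3 and 6 the differences were 0.24 and 0.21. Il7r, the IL-7 receptor of T cells, stood at 0.07 ± 0.06 SE (adjusted p = 0.515). Tnfrsf14, the lymphocyte receptor HVEM, was also highest in aged replicates 3 and 6, at 0.57 and 0.51 (difference 0.28 ± 0.12 SE, adjusted p = 0.172), and passed without aged replicate 2 (0.0486).

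Natural killer cell markers, 9 of them measured, had their highest mean score in the same arrays, 0.92 in aged replicate 3 and 0.71 in aged replicate 6. Elsewhere the score lay between -0.41 and 0.03. T lymphocyte markers (14 measured) scored 0.22 and 0.17 there and -0.14 to 0.03 in the other arrays. A score is the mean over markers of each value minus that marker's mean over the 10 arrays. Of these markers 2 of 9 (22.2%) and 0 of 14 rose, against 6.77% of all genes, and Ncr1 and Trat1 were in the dimmest class. The part of these cells in the receptor values was not tested.

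**Figure D4:**
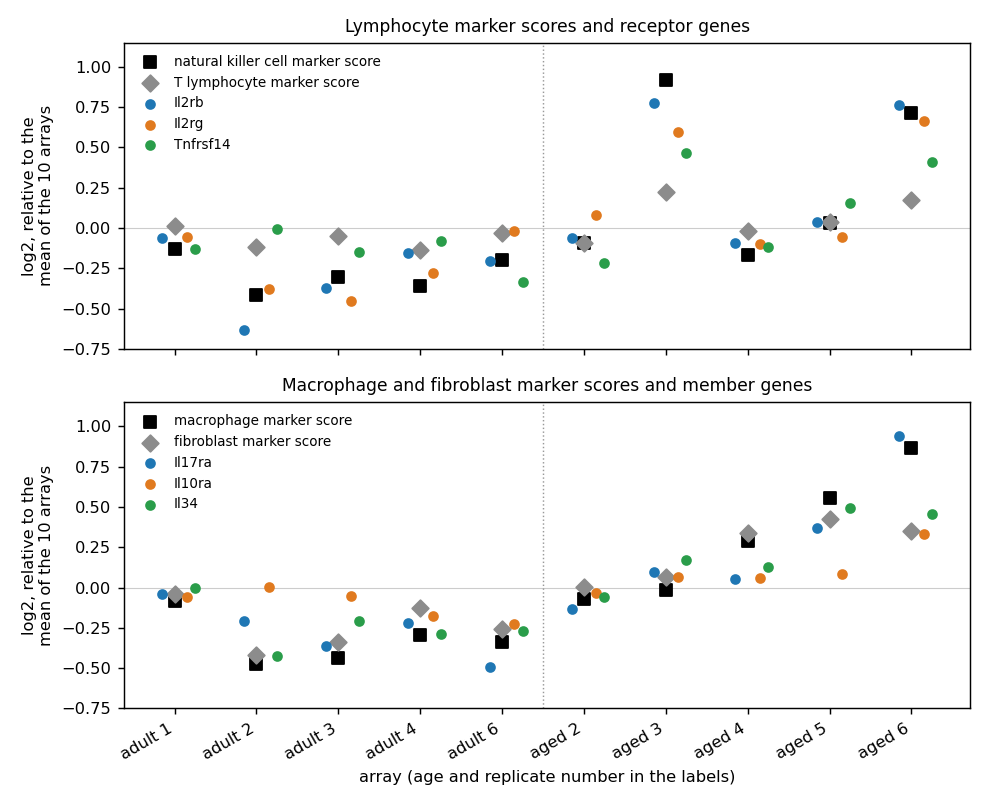
Mean marker scores (black and grey symbols) and single member genes (coloured points) for each array, in log2 relative to the mean of the 10 arrays. In the upper panel Il2rb, Il2rg and Tnfrsf14 are high in aged replicates 3 and 6, where the natural killer cell score is 0.92 and 0.71; in the lower panel Il17ra is highest in aged replicate 6, where the macrophage score is 0.87.

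Il17ra, the shared receptor chain of the IL-17 family, had the widest range of all members. It read 0.05, -0.12, -0.28, -0.14 and -0.40 in adult arrays and -0.05, 0.18, 0.14, 0.46 and 1.03 in aged arrays. Aged replicate 6 was the highest and aged replicate 2 lay within the adult values. The difference of 0.53 ± 0.17 SE did not pass (adjusted p = 0.0593), and did without aged replicate 2 (0.0251). Il10ra and Il10rb, the 2 chains of the IL-10 receptor, stood at 0.20 ± 0.07 SE and 0.15 ± 0.06 SE (adjusted p = 0.0822 and 0.114). Il10ra passed without aged replicate 2 (0.0483). Its probe sets gave 0.48, which passed, and -0.07. Il1r1, the signalling receptor of IL-1, stood at 0.18 ± 0.06 SE (adjusted p = 0.0737), from 1 probe set at 0.57 that passed and 2 at -0.03 and 0.01. It passed without adult replicate 2 (0.0400) or aged replicate 2 (0.0448). By probe set, 10 member probe sets rose and 0 fell, against 4.42% of all probe sets that rose and 3.6% that fell.

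The shares to set beside the marker counts are 6.77% of all genes that rose and 5.09% that fell. Macrophage markers, of which 8 of 15 rose (53.3%), scored -0.47 to -0.08 in adult arrays and -0.07 to 0.87 in aged arrays. Of these markers 0 lay in the dimmest class. Fibroblast markers, of which 6 of 12 rose (50%), scored -0.42 to -0.04 and 0.00 to 0.42. Scores of the endothelium ran from -0.14 to -0.03 and from -0.03 to 0.18, with 2 of 10 markers risen (20%). Cardiomyocyte markers scored 0.02 to 0.30 in adult and -0.22 to 0.08 in aged arrays. Of 11 measured, 1 rose and 3 fell, with differences from -1.24 to 0.76. Atrial markers scored -0.72 to -0.10 in adult and 0.08 to 0.54 in aged arrays. Of 6 measured, 2 rose (33.3%), with differences from -0.29 to 2.69 and a median of 0.21, so the mean score leans on the largest. The part of all these cell types in the rises above was not tested. Without both aged replicates 3 and 6, the call held in 5 of the 7 genes, Il33, Tnfrsf1a, Tnfrsf12a, Il4r and Tnfsf13.

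Of the other TNF receptor genes, Tnfrsf26 stood at 0.20 ± 0.09 SE (adjusted p = 0.171) and Tnfrsf8, which encodes CD30, at -0.14 ± 0.06 SE (0.187). Tnfrsf19 and Tnfrsf11a, the latter for RANK, stood at 0.09 and 0.07 (adjusted p = 0.294 and 0.566). The 13 receptor genes not named here had differences from -0.10 to 0.04.

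Genes of soluble antagonists and decoy receptors, 7 in number, had 0 risen and 0 fallen at the adjusted threshold. At an unadjusted p under 0.05, 2 were lower and 0 higher, against 12.0% and 14.3% of all genes. Il18bp, which binds and neutralizes IL-18, read 0.14, 0.08, 0.08, -0.05 and 0.09 in adult arrays and 0.00, -0.33, -0.37, -0.20 and 0.00 in aged arrays. Aged replicates 3, 4 and 5 lay below all adult arrays, and replicates 2 and 6 lay within them. The difference was -0.25 ± 0.08 SE (adjusted p = 0.0563, limma), and it passed without aged replicate 2 (0.0260) or 6 (0.0362). Il1rn, the receptor antagonist of IL-1, stood at -0.15 ± 0.06 SE (adjusted p = 0.122), with aged replicate 6 at -0.23. The decoy receptor gene Il1r2 stood at 0.02 and Tnfrsf11b, for osteoprotegerin, at 0.09 (adjusted p = 0.882 and 0.437). The probe set of Il1r2 lay in the dimmest class. The other 3 had differences from -0.06 to -0.03.

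Values of the members were not evenly spread over the arrays. Aged replicate 3 held the highest value of the 10 arrays in 17 members (23.0%) and aged replicate 6 in 14 (18.9%), against 14.1% and 13.4% of all genes. These 2 arrays held the lowest value in 6 (8.11%) and 10 (13.5%) members, against 15.3% and 12.1% of all genes. Aged replicate 6 was highest in 4 of the 7 genes that rose, and adult replicate 4 lowest in 3. The range over the 10 arrays had a median of 0.37 in members and 0.35 in all genes. It exceeded 1 in 5 of the 74 members, Il17ra, Il2rb, Tnfrsf12a, Tnfsf10 and Il2rg, and in 565 of all 14217 genes.

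Other genes of these pathways were read from lists made for signalling proteins and for family members with other symbols. The shares to set beside each list are 6.77% of all genes that rose and 5.09% that fell. At an unadjusted p under 0.05 they are 14.3% higher and 12.0% lower. In the list of IL-1 and Toll receptor adaptors and the inflammasome, 4 of 18 genes rose and 2 fell, with a median difference of 0.17. At an unadjusted p under 0.05, 11 were higher and 2 lower (61.1% and 11.1%). Casp1, the protease that matures IL-1 beta and IL-18, rose by 0.53 ± 0.10 SE (adjusted p = 0.00650, limma) with no overlap of the ages. The receptor gene Tlr2 rose by 0.35 and the adaptor gene Myd88 by 0.40, while Ecsit, which also serves in assembly of complex I, fell by 0.53 (adjusted p = 0.0127, 0.0191 and 0.00267). The remaining calls were Irak3, which rose by 0.41, and Tirap, which fell by 0.20 (adjusted p = 0.0210 and 0.0338, limma). Myd88 did not pass without adult replicate 3 (0.0513) or aged replicate 5 (0.0531), and without both aged replicates 3 and 6 the list had 1 risen gene. The number that fell was 1 on leaving out any of adult replicates 2 to 4, or of aged replicates 3, 4 and 6.

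Of 24 TNF receptor signalling proteins, 1 rose and 1 fell (median -0.02). At an unadjusted p under 0.05, 5 were higher and 3 lower. Tab1, a partner of the kinase TAK1, fell by 0.30 ± 0.05 SE (adjusted p = 0.00533, limma), every aged array lying below every adult array. Ripk1, the kinase recruited to TNF receptor 1, rose by 0.20 ± 0.06 SE (adjusted p = 0.0444). Its call was lost on leaving out any of adult replicates 1 to 4, or of aged replicates 4 to 6 (0.0763 to 0.111). A further gene fell without aged replicate 2 or 4, and without aged replicate 3 there were 2 that rose. Of 12 NF-kappaB subunits and regulators 0 passed, and 3 were higher at an unadjusted p under 0.05 (median 0.08). Nfkb2, the subunit of the alternative pathway, was higher in all aged arrays (0.14 ± 0.04 SE, adjusted p = 0.0600) and passed without aged replicate 3 (0.0459), and Nfkbiz stood at 0.20 (0.145).

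Among 25 Janus kinases, STATs and their inhibitors 0 rose and 1 fell, Socs2, a feedback inhibitor (-0.28 ± 0.07 SE, adjusted p = 0.0283, limma). The median was 0.01, and 4 genes were higher and 4 lower at an unadjusted p under 0.05. Leaving out any of adult replicates 1 to 3, or of aged replicates 2, 5 and 6, ended the call of Socs2 (0.0501 to 0.0745). Without aged replicate 2 the list had 2 risen genes and without aged replicate 4 it had 1. Without adult replicate 6 it had 2 that fell.

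Of 26 genes that NF-kappaB or STAT3 are known to induce, 5 rose (19.2%, against 6.77% of all genes) and 0 fell, with a median difference of 0.05. The mean was higher in aged hearts in 15 of them and lower in 11. At an unadjusted p under 0.05, 7 were higher and 1 lower (26.9% and 3.85%, against 14.3% and 12.0% of all genes). Nfkbia, Socs3 and Nos2, which did not pass, stood at -0.11, 0.01 and -0.15. Ccl2 and Tnfaip3, which did not pass either, stood at 0.76 and 0.28 (adjusted p = 0.0685 and 0.0960, limma). The endothelial adhesion genes Vcam1 and Icam1 rose by 1.36 ± 0.19 SE and 0.44 ± 0.08 SE (adjusted p = 0.00166 and 0.00444, limma). Timp1, an inhibitor of matrix proteases, rose by 0.72, and Lbp, which presents endotoxin, by 0.76 (adjusted p = 0.00876 and 0.0161). In these 4 genes no aged array lay below an adult array. Junb, the remaining gene of the list that rose, stood at 0.39 (adjusted p = 0.0296, limma). The list was chosen with results for Vcam1 known.

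Family members under other symbols gave few calls. Of 8 TNF superfamily genes named otherwise 0 passed, and 2 were higher at an unadjusted p under 0.05. Faslg, the death ligand of cytotoxic lymphocytes, stood at 0.37 ± 0.12 SE (adjusted p = 0.0729, limma), with aged replicate 3 at 0.79, and Ltbr, the lymphotoxin receptor, at 0.17 (0.154). Faslg passed without aged replicate 2 (0.0461) or 3 (0.0420). Of 8 cytokines and receptors of the IL-6 type 0 passed, also 0 at an unadjusted p under 0.05, with Cntfr at -0.09 and Ctf1, for cardiotrophin 1, at -0.18 (adjusted p = 0.272 and 0.305). Of 11 colony-stimulating factors and related receptors 1 rose, Csf2ra, the alpha chain of the GM-CSF receptor (0.36 ± 0.08 SE, adjusted p = 0.0140). Without aged replicate 3 there were 2.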

How the data were processed

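Values came from the authors' deposited table and were used as log2 values. The base of the logarithm is an inference from the size of their smallest step. How the authors normalized is not given in the sources used here. Row medians were all 0 (tolerance 1e-06), so no level is held. Per the labels' protocols, RNA was amplified over 2 cDNA cycles and labelled with biotin.

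Of 31042 probe sets, 20826 had 1 gene symbol, 436 several (named for none; Il13ra1 among them) and 9780 none listed. All 92 member probe sets matched RefSeq (GRCr8) by gene identifier. Probe sets were averaged per gene.

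Ages were compared with limma 3.58.1 (lmFit, eBayes; prior degrees of freedom 4.36) in R 4.3.3 over all 14217 genes, with no covariate and Benjamini-Hochberg adjustment. A gene rose or fell at an adjusted p under 0.05. Intervals are 95% from the same fit. The fit was tested on simulated data. Python 3.11.15 served for tables and plots. For arrays, their number limits the precision.

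Members named were all past the threshold, the next by p up to 25, and others for known roles. Of each list up to 4 past the threshold were named, or 2 of smallest p. Some further list genes were named outside this rule. Members, rules and lists were chosen with earlier results of these data known. Settings tried were array centring, quantile normalization, choice of probe sets, dim probe sets left out, array weights, robust variance, a replicate block and arrays left out.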

Additional observations from a re-analysis of the deposited data

Results flagged for a closer look

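Single arrays lay far from the other 4 of their age in 7 of the 124 groups of 5 values tested, where chance gives about 1 in 20. Each exceeded Dixon's 95% critical value. Among members, Il1b was low in aged replicate 3 (-0.25, the others from 0.01 to 0.06). Il1rn was low in aged replicate 6 (-0.23, the others from -0.02 to 0.01), as was Il11 (-0.15, the others from 0.00 to 0.03). Tnfrsf26 was low in adult replicate 3 (-0.38, the others from -0.07 to 0.00).

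Among pathway genes, Ctf1 was low in adult replicate 3 (-0.29, the others from 0.08 to 0.13). Lbp was high in adult replicate 2 (-0.0014, the others from -0.35 to -0.29) and Ripk1 in adult replicate 6 (0.053, the others from -0.12 to -0.07).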

How the results depend on the processing

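The count of 7 members that rose was between 5 and 13 without single arrays and between 5 and 9 in the other settings. Il33, Tnfrsf1a and Tnfrsf12a passed in each of the 19 settings, Il34 in all but 1, and Il6st in 10. The count of members that fell was 0 to 1 without single arrays and 1 with array weights (Il18bp, adjusted p = 0.0269). The number of all genes higher in aged hearts was 558 to 1059 without single arrays, and that of all genes lower in aged hearts 406 to 940. The latter was 356 without both aged replicates 3 and 6, and 348 with the replicate block.

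With the replicate number as a replicate block, over the 4 numbers that both ages share, 8 members rose. Il4r (adjusted p = 0.0683) and Il6st (0.0688) did not pass, and Il2rb (0.0421), Il2rg (0.0329) and Tnfsf12 (0.0224) did. The numbers are not said to pair the samples. Deviations of same-numbered arrays correlated at 0.03 to 0.15, and 1 of 4 adult arrays correlated best with its own number.

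Quantile normalization also passed Il17ra (0.0281) and Il2rb (0.0418). Il1r1 passed by plain _at probe sets (0.0298), where Il4r has no value. Differences near zero changed sign. Il15 was 0.0031 with arrays centred on their medians, 0.0065 with quantile normalization and 0.060 without both aged replicates 3 and 6. Il1a was 0.00082 when centred, 0.022 by plain _at probe sets and 0.00029 with the block. Il11ra1 was 0.028 with array weights and 0.019 without both arrays. Il1rap was -0.00076 and -0.0044 in those settings, and Il1r2 was -0.023 without both. Without single arrays, Il15 ran from -0.074 to 0.055, Il1a from -0.064 to 0.031, Il11ra1 from -0.086 to 0.0086, Il1rap from -0.011 to 0.053, Il1r2 from -0.018 to 0.050, Il7 from -0.038 to 0.011, Ltb from -0.010 to 0.094 and Il1rl1 from -0.0014 to 0.067. Causes were not tested.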
